A study of Rattus norvegicus with 10 samples.

Results

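The serpins are a family of proteins most of which inhibit proteases. Here, 7 serpin genes were examined in splenic M2 macrophages of rats: *Serpinb8*, *Serpinb9*, *Serpinb6*, *Serpinb1a*, *Serpinb2*, *Serping1* and *Serpinh1*. They were taken as a list of names, chosen by family membership with results of these same libraries known, and *Serpinb8* in particular was treated as selected on its lower level in nephritis. For this reason the difference of *Serpinb8* between GN and control is given below as a description without a test. Values were available for 5 of the 7 listed genes, among 9003 genes in all. *Serpinb2*, an inhibitor of urokinase, and *Serpinh1*, a collagen chaperone without inhibitory activity, were not analysed here. The table held 3 further genes of the family, *Serpinb10*, *Serpinb6b* and *Serpini1*, which are described beside the listed ones.

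All rats were of the strain WKY /Ncrj, and female rats were used for nephritis according to the methods of the study. The control group was M2 macrophages under physiological conditions (n = 2). The GN group came from rats with glomerulonephritis that received no ASCs (n = 2), in which nephritis had been induced with TF78, a mouse monoclonal antibody against the glomerular basement membrane. The EV+ (n = 3) and EV- (n = 3) groups came from rats with the same nephritis that were given human adipose-derived mesenchymal stem cells (ASCs) whose membranes carried the dye DiD. EV+ macrophages were sorted as DiD-positive and EV- macrophages as DiD-negative, so dye on the cell, and not a measurement of vesicles, separated these groups. The labels give no age, the methods give only a range of weeks for the rats of the nephritis model as a whole, and the sources used here do not say whether a library came from a single animal or from a pool.

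Reads were counted per RefSeq gene, and levels are given as TMM-normalized CPM, that is, as reads relative to the size of the library. The number of reads behind each value could be recovered, and over the 9003 genes these reads summed to 19270515 to 26617093 per library. At this depth, 3 reads, taken as the limit of detection, were worth 0.113 to 0.153 CPM, which covers counting error only. Groups were compared with limma on log2(CPM + 1), with Benjamini-Hochberg adjustment over all 9003 genes, and an adjusted p under 0.1 was the threshold. Differences are on this log2 scale, which understates the change of low genes. CPM is not scaled by transcript length, so levels are compared between groups and not between genes. The pan-macrophage genes *Csf1r* and *Lyz2* were abundant in all groups, with means of 6044 and 15719 CPM in control. Of the M2 markers, *Cd163* was at most 1.81 CPM and *Mrc1* at most 1.81 CPM in any library, and each was at 0 in some libraries. EV- replicate 1 stood apart by its transcripts of cytotoxic lymphocytes, which are given with *Serpinb9* below, together with the EV- results without this library.

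A serpin presents a flexible loop to a protease as bait. When the protease cuts this loop, the serpin changes shape and traps the enzyme in an inactive complex, so that both molecules are used up. Members of clade B lack a classical secretion signal and act mostly inside cells, where they protect leukocytes from their own granule proteases or from those of neighbouring cells. In macrophages and neutrophils these targets include granzymes, elastase, cathepsin G and proteinase-3. *Serping1*, in contrast, encodes the secreted C1 inhibitor of the complement and contact systems.

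Most of the measured genes lie beside other serpins. In the RefSeq annotation of assembly GRCr8, *Serpinb2*, *Serpinb10* and *Serpinb8* are consecutive protein-coding genes, as are *Serpinb9*, *Serpinb6b* and *Serpinb1a*. Because related genes such as *Serpinb6b* and *Serpinb9b* are similar in sequence, reads shared between them could be lost or misplaced in counting, and the levels of *Serpinb6*, *Serpinb9* and *Serpinb1a* carry this uncertainty. The gene called *Serpinb6* in the table is *Serpinb6a* in RefSeq.

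The start regions of *Serpinb9* and *Serpinb1a* are shown because these genes represent different patterns across the groups and both have a RefSeq entry. Each window runs from 250 bases before to 50 bases after the gene start, from RefSeq (GRCr8), at chr17:31640767-31641066 on the minus strand for *Serpinb9* and chr17:31799196-31799495 on the plus strand for *Serpinb1a*. Capitals mark matches to 3 motifs searched on both strands: the interferon-stimulated response element (GAAA and GAAA spaced by any pair of bases), AP-1 (TGANTCA) and the interferon-gamma activated site (TTCNNNGAA), which do not overlap in these windows.
Serpinb9: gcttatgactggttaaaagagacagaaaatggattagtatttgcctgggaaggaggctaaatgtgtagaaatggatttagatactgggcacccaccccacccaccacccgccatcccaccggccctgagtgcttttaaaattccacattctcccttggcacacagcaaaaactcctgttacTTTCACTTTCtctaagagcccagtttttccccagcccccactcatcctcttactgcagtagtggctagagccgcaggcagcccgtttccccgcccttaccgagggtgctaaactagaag
Serpinb1a: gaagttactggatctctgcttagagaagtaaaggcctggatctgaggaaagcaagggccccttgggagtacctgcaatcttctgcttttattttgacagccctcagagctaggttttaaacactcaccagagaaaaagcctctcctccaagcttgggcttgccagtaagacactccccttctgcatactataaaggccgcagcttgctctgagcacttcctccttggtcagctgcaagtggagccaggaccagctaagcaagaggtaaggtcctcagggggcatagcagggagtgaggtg
The only match was in *Serpinb9*, where the response element lay on the reverse strand from base -69. Of 33469 promoter windows of the same length, 3.92% held this element, 7.33% the AP-1 motif and 8.87% the activated site. A match describes the letters and does not show a site in use.

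*Serpinb9* encodes an intracellular inhibitor of granzyme B. It had 7.20 and 10.1 CPM in control, 15.4 and 17.7 CPM in GN, 15.4, 10.3 and 12.4 CPM in EV+, and 29.3, 11.1 and 9.96 CPM in EV- replicates 1 to 3. Both GN libraries lay above both control libraries and, by a narrow margin for EV+ replicate 1, above all 3 EV+ libraries, and EV- replicate 1 was the highest of the 10. The difference between GN and control was 0.88 (SE 0.368), which did not pass (adjusted p = 0.403 by limma). Without EV- replicate 1, which is not part of this comparison but adds to the shared estimate of spread, the adjusted p was 0.0977 by limma. The differences from GN were -0.37 in EV+ (adjusted p = 0.890 by limma) and -0.14 in EV- (adjusted p = 0.9696). In EV- against GN the sign turned with the recovered reads, to 0.02 by edgeR and DESeq2, and the difference was -0.60 without EV- replicate 1.

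EV- replicate 1 also carried the highest levels of cytotoxic granule genes. *Gzmb*, which encodes granzyme B, the protease that *Serpinb9* inhibits, had 50.7 CPM in this library, 8.10 and 2.96 CPM in EV- replicates 2 and 3, and at most 1.76 CPM in the other 7 libraries. *Prf1*, which encodes the pore-forming protein perforin, had 335, 51.4 and 24.5 CPM in the EV- libraries and at most 18.4 CPM elsewhere. *Gzmm*, another granzyme, had 115, 15.9 and 9.92 CPM in the EV- libraries and at most 6.21 CPM elsewhere. Each of these granule genes was higher in every EV- library than in any library of the other groups. Of 15 NK and T cell markers, 12 had values, and their summed level was 1598 to 1626 CPM in control, 1625 to 1669 CPM in GN, 1668 to 1790 CPM in EV+ and 1586 to 2239 CPM in EV-. Most of this sum came from *Cd4*, *Cd8a* and *Klrk1*, which were abundant in all groups, while *Cd3e*, a defining T cell gene, was at 0 in 6 of the 10 libraries and had a mean of 0.902 CPM in EV-. The median difference of the 12 markers was 1.60 between EV- and GN and -1.39 between EV+ and EV-. *Cd3e* and *Ncr1* reached 1 CPM only in EV- libraries, and the table held only genes that did so in some library. The filter thus favours an EV- excess for these genes, and the median and the counts of calls carry this limit. limma called 0 of 12 in both comparisons, while 8 and 9 had an unadjusted p under 0.05, edgeR's likelihood-ratio test called 7 and 5, its quasi-likelihood test 0 and 0, and DESeq2 8 and 5. The part of lymphocyte RNA in the EV- levels of *Serpinb9* or of any other serpin was not tested. Without EV- replicate 1, EV- differed from GN by -0.33 for *Serpinb1a* (adjusted p = 0.181 by limma), 0.12 for *Serpinb6*, 0.37 for *Serpinb8*, -0.77 for *Serping1* and 1.06 for *Serpinb10*. In bulk libraries, more cells of a type and more RNA per cell cannot be told apart.

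**Figure D1:**
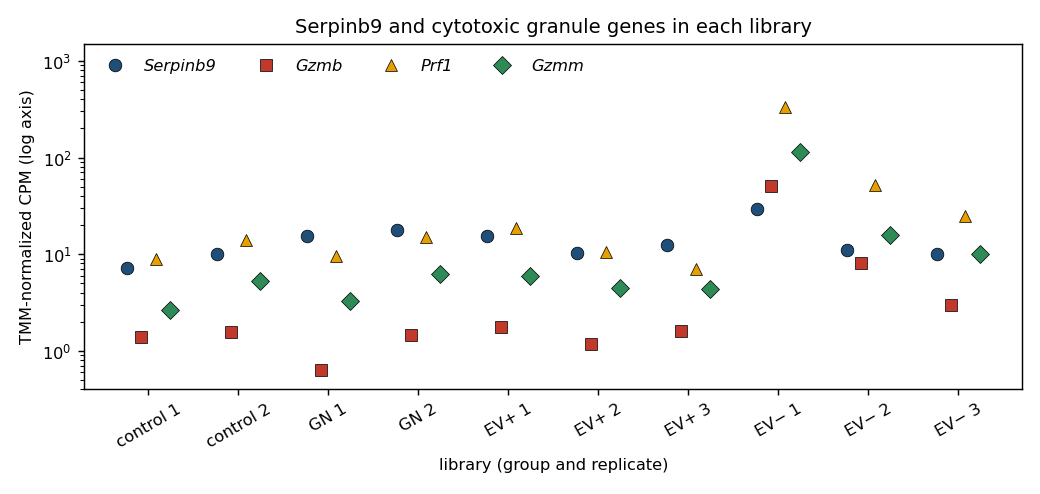
TMM-normalized CPM (log axis) of *Serpinb9*, *Gzmb*, *Prf1* and *Gzmm* in each of the 10 libraries (symbols, offset sideways for clarity). The 3 granule genes are highest in the 3 EV- libraries, and all 4 genes peak in EV- replicate 1, where *Serpinb9* reaches 29.3 CPM.

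*Serpinb1a* encodes an inhibitor of neutrophil elastase, cathepsin G and proteinase-3. It had 203 and 205 CPM in control, 253 and 239.7 CPM in GN, 229, 246 and 231 CPM in EV+, and 189, 198 and 193 CPM in EV-. The EV- libraries were below every other library, control included, and did not overlap with any group, while the EV+ libraries overlapped with GN. In EV- it fell by 0.35 against GN (SE 0.0716, adjusted p = 0.0796 by limma), from a mean of 246 ± 9.46 CPM (SD, n = 2) to 193 ± 4.71 CPM (n = 3). The 12 NK and T cell markers described above had a median difference of 1.60 in the same comparison, where limma called 0 and DESeq2 8 of them. The limit of the filter given there holds here too. Among them, *Cd4*, *Cd8a* and *Klrk1* differed by -0.07, 0.17 and 0.24. The call of *Serpinb1a* was close to the threshold and was lost with the replicate number as a block (adjusted p = 0.110 by limma). It was also lost on leaving out either control library, either GN library, EV+ replicate 3 or any EV- library, with adjusted p of 0.126 to 0.726 in those fits, although the difference itself stayed between -0.39 and -0.31.

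GN exceeded control by 0.27 (SE 0.0785), which did not pass (adjusted p = 0.156 by limma, and 0.0357 by DESeq2). EV+ differed from GN by -0.07 (adjusted p = 0.912 by limma). EV+ exceeded EV- by 0.28 (SE 0.0641), which did not pass in the fit of all libraries (adjusted p = 0.356 by limma, and 0.381 with the replicate block). It did pass by edgeR's likelihood-ratio test (adjusted p = 0.0524), by DESeq2 (adjusted p = 0.00773) and when only the 6 EV+ and EV- libraries were fitted with the replicate block, a fit added once the values were known (adjusted p = 0.0436 by limma). The ratio of EV+ to EV- in libraries of the same replicate number was 1.21, 1.24 and 1.19, so the 3 pairs gave nearly the same excess. Among the 4 groups together, *Serpinb1a* differed with an adjusted p of 0.0396 by limma. The granule proteases of neutrophils that it inhibits were not analysed here. Of 11 neutrophil markers, 7 had values, and their summed level was 549.7 to 555 CPM in control, 609 to 689 CPM in GN, 700.4 to 718 CPM in EV+ and 656 to 744 CPM in EV-. Most of this sum was *Csf3r*, and the part of neutrophils in the values of *Serpinb1a* was not tested.

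*Plvap*, a marker of endothelium, followed the same order of groups as *Serpinb1a*, and the other measured markers of stroma and endothelium did not. Of 11 markers of stroma and endothelium, 4 had values, with a summed level of 245 to 267 CPM in control, 349 to 354 CPM in GN, 319 to 337 CPM in EV+ and 252 to 268 CPM in EV-. *Plvap*, which encodes a diaphragm protein of endothelial cells, had means of 94.8, 173, 131 and 75.3 CPM in the same order. It rose by 0.87 in GN against control (adjusted p = 0.00829 by limma), fell by 1.19 in EV- against GN (adjusted p = 0.000832) and was higher in EV+ than in EV- by 0.79 (adjusted p = 0.0394). *Pecam1*, which macrophages also express, had means of 154, 172, 191 and 177 CPM. *Pdgfrb*, a marker of stroma, had means of 6.58, 6.55, 8.67 and 7.06 CPM, and both were highest in EV+. The collagen gene *Col3a1* was at most 1.46 CPM and at 0 in some libraries. The endothelial genes *Cdh5*, *Kdr* and *Vwf* were among the markers without values here. The part of endothelial cells in the values of *Serpinb1a* was not tested.

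*Serpinb6* encodes an inhibitor of cathepsin G and related granule proteases. It had 62.2 and 62.2 CPM in control, 65.8 and 66.0 CPM in GN, 70.9, 69.04 and 80.4 CPM in EV+, and 71.1, 69.3 and 74.0 CPM in EV-. Control was the lowest group and GN the next, and every EV+ and EV- library lay above both, while EV+ and EV- overlapped. These steps were small, at 0.08 between GN and control (SE 0.102), 0.15 between EV+ and GN (SE 0.0931) and 0.11 between EV- and GN (SE 0.0931), and none passed (adjusted p = 0.851, 0.828 and 0.842 by limma). The pairs of control and GN libraries were closer to each other than the 1359 to 1902 reads per library would lead one to expect from counting alone, so their SD of 0.0103 and 0.138 CPM gives a poor estimate of the spread, and limma's moderated variance was used. EV+ and EV- differed by 0.04 (adjusted p = 0.9997 by limma).

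*Serpinb8* encodes an inhibitor of furin, a proprotein convertase. It had 9.59 and 12.5 CPM in control, 3.87 and 3.05 CPM in GN, 5.47, 4.67 and 4.28 CPM in EV+, and 5.10, 6.22 and 3.54 CPM in EV-. Both control libraries were above all 8 nephritic ones, the highest of which had 6.22 CPM. The mean was 11.1 ± 2.08 CPM (SD, n = 2) in control and 3.46 ± 0.576 CPM (n = 2) in GN, a log2 difference of -1.43. Without control replicate 2 the difference was -1.25, and without GN replicate 2 it was -1.30. Markers of blood cells also differed between these groups. The haemoglobin gene *Hbb* had a mean of 1.22 CPM in control and 4.68 CPM in GN (adjusted p = 0.0239 by limma), and *Cd79b*, a gene of the B cell receptor, had 97.9 and 54.9 CPM (adjusted p = 0.0331 by limma). Their part in the level of *Serpinb8* was not tested. All 3 EV+ libraries were above both GN libraries, by a difference of 0.38 (SE 0.230), and the EV- libraries overlapped with GN, with a difference of 0.40 (SE 0.230). Neither passed (adjusted p = 0.827 and 0.730 by limma). EV+ and EV- differed by -0.01 (SE 0.206, adjusted p = 0.9997 by limma). *Furin* itself had means of 347 CPM in control, 352 CPM in GN, 374 CPM in EV+ and 381 CPM in EV-, and differed by 0.02 between GN and control (adjusted p = 0.978 by limma).

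*Serping1* encodes the C1 inhibitor, which inactivates C1r and C1s of the classical complement pathway, plasma kallikrein and factor XIIa. It was sparse, at 10 to 67 reads per library, and had 1.58 and 1.24 CPM in control, 2.48 and 1.43 CPM in GN, 2.62, 0.421 and 2.05 CPM in EV+, and 0.680, 0.612 and 0.817 CPM in EV-. The 3 EV- libraries were close together and below the control and GN libraries, while the EV+ libraries spanned the whole range, with EV+ replicate 2 the lowest of all. All EV- values were under 1 CPM, so *Serping1* passed the filter of the table, 1 CPM in some library, only through the other groups. The filter thus favours a gene that is high in those groups, and the differences from EV- below carry this limit. The difference between EV- and GN was -0.78 (SE 0.355, adjusted p = 0.622 by limma), and EV+ lay above EV- by 0.56 (SE 0.318, adjusted p = 0.9997). The first was -0.52 without GN replicate 1, and the second was 0.29 without EV+ replicate 1 and 0.97 without EV+ replicate 2. GN and control differed by 0.28 (adjusted p = 0.875 by limma), which became 0.17 without control replicate 2, 0.017 without GN replicate 1 and 0.54 without GN replicate 2. On the recovered reads DESeq2 gave -1.47, 1.27 and 0.47 for these 3 differences, none of which passed. EV+ against GN was -0.22 (adjusted p = 0.942 by limma), and it turned to 0.19 without EV+ replicate 2 and to 0.042 without GN replicate 1. The proteases *C1r* and *C1s* were sparse too, with *C1r* at 0 to 1.85 CPM and *C1s* at 0 to 1.17 CPM. Of 11 complement components, 9 had values, and limma called 1 of the 9 between GN and control. This was *C2*, a protease of the classical pathway, with a rise of 0.92 (SE 0.156, adjusted p = 0.0111 by limma) from a mean of 131 to 250.1 CPM. edgeR's likelihood-ratio test and DESeq2 each called 3 of the 9, and 5 had an unadjusted p under 0.05, where 10.4% of all genes did.

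**Figure D2:**
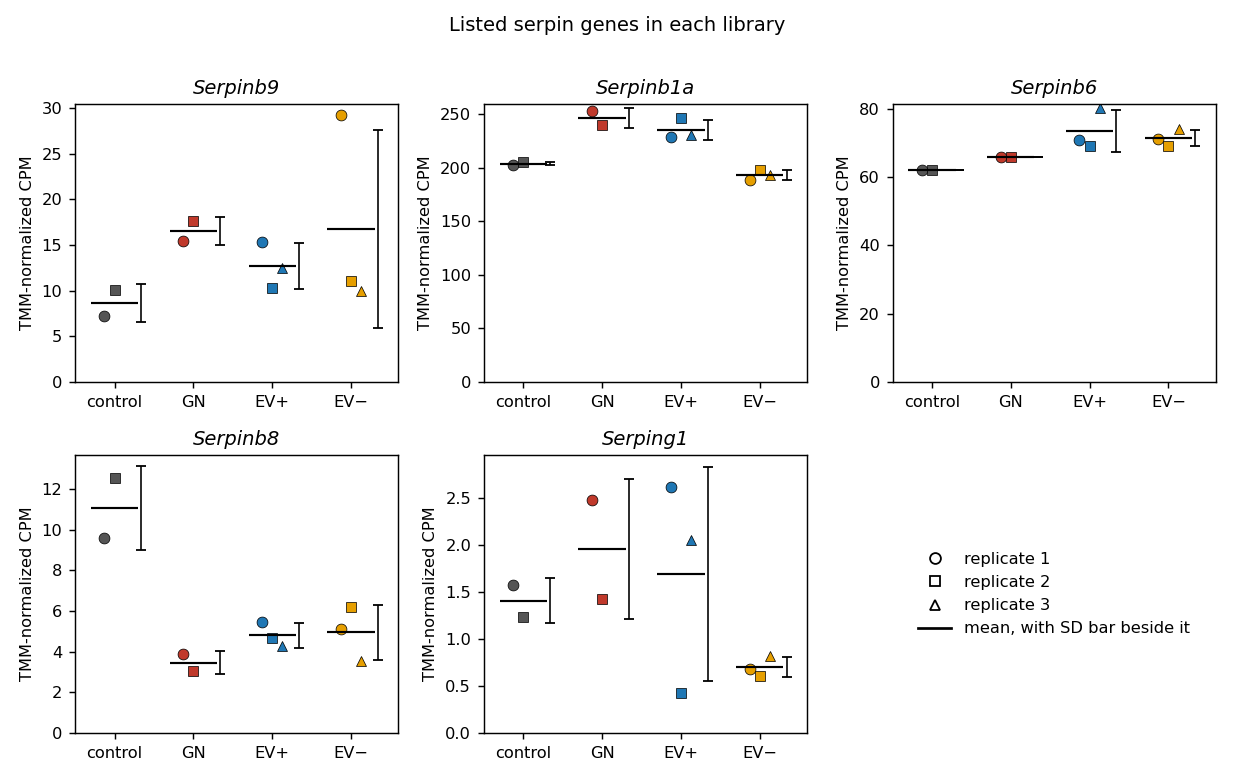
TMM-normalized CPM (linear axis from 0) of the 5 listed serpins in each library, by group, with the symbol giving the replicate, the line the mean and the bar beside it the SD (n = 2, 2, 3 and 3). *Serpinb8* is highest in control (9.59 and 12.5 CPM), *Serpinb1a* lowest in EV- (189 to 198 CPM), and *Serpinb9* has 1 high EV- library (29.3 CPM).

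Among the serpins that were not on the list, *Serpinb10*, a nuclear serpin of blood cells, showed the widest contrast. It had 1.27 and 1.32 CPM in control, 0.197 and 0.490 CPM in GN, 0.313, 0.505 and 0.312 CPM in EV+, and 1.07, 2.14 and 1.48 CPM in EV-. Control and EV- were high and GN and EV+ low, with no overlap between the high and the low groups. This split was made after the values were seen. The table held only genes that reached 1 CPM in some library, and *Serpinb10* did so only in control and EV-. The filter thus favours a gene that is high in these groups, and the tests below carry this limit. The pattern rests on few reads, with 5 to 13 in the GN and EV+ libraries and 22 to 42 in the others. EV+ and EV- differed by -0.88 (SE 0.247, adjusted p = 0.757 by limma). Only the likelihood-ratio test of edgeR put this difference past the threshold among the tools run (adjusted p = 0.0442). The ratio of EV+ to EV- was 0.292, 0.236 and 0.211 in the 3 same-numbered pairs. The pseudocount compressed this difference, which was -1.78 with a pseudocount of 0.1 and -2.05 by DESeq2 (adjusted p = 0.197). The difference between GN and control was -0.78 (adjusted p = 0.349 by limma), and -1.91 by DESeq2 (adjusted p = 0.239). That between EV- and GN was 0.92 (adjusted p = 0.3403 by limma). On the recovered reads it was 2.16 in the likelihood-ratio test of edgeR, which called it (adjusted p = 0.0671), and 2.18 in DESeq2, which did not (adjusted p = 0.142).

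*Serpinb6b*, a relative of *Serpinb6*, had 1.58 and 1.36 CPM in control, 0.947 and 0.791 CPM in GN, 1.25, 0.758 and 1.29 CPM in EV+, and 2.19, 1.78 and 1.25 CPM in EV-. Its GN libraries lay below all control and all EV- libraries, and none of its differences passed (adjusted p of 0.657 to 0.9997 by limma). Both GN values were under 1 CPM, so *Serpinb6b* passed the filter only through the other groups, and its differences from GN carry this limit. *Serpini1*, which encodes the inhibitor neuroserpin, ranged from 2.68 to 6.17 CPM. Its 3 EV+ libraries (4.69, 3.62 and 5.58 CPM) were above both GN libraries (2.998 and 3.13 CPM) by 0.46 (adjusted p = 0.827 by limma). The EV- libraries (6.17, 2.96 and 5.25 CPM) overlapped with GN and differed from it by 0.47 (adjusted p = 0.742 by limma). EV+ and EV- differed by -0.01 (adjusted p = 0.9997 by limma).

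**Figure D3:**
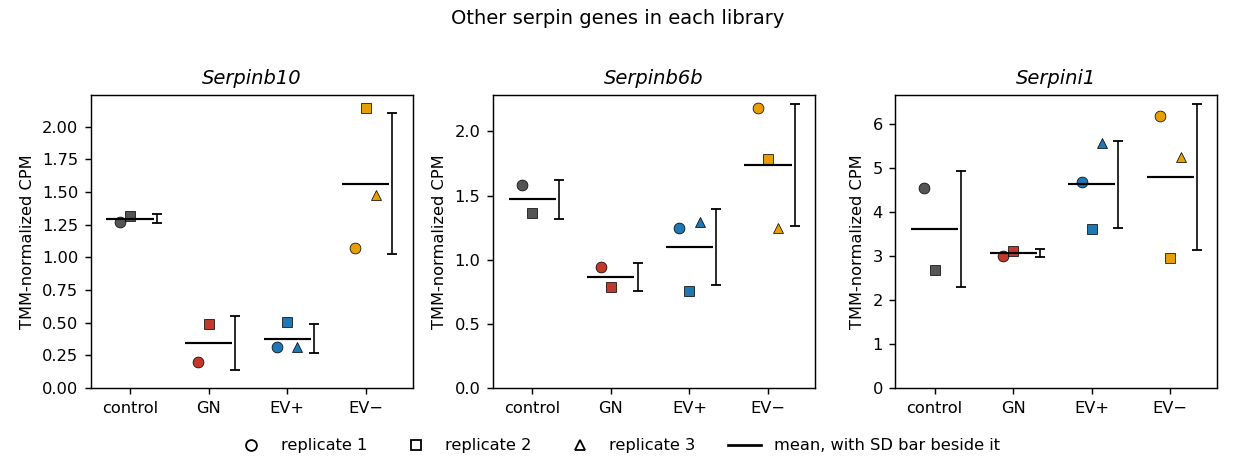
TMM-normalized CPM (linear axis from 0) of the 3 further serpins in each library, by group, with the mean as a line and the SD as a bar. *Serpinb10* is at 0.197 to 0.505 CPM in the GN and EV+ libraries and at 1.07 to 2.14 CPM in the control and EV- libraries.

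Counted over the listed genes, 1 of 5 (*Serpinb8*, lower) passed between GN and control, where 1.75% of all genes passed. As *Serpinb8* was treated as selected on this contrast, nothing is read from that count. The other listed genes were also chosen with results of these libraries known, so the counts that follow are a description. The values of these groups did not overlap for 4 of the 5 genes, against 43.9% of all genes, a share that is high because only 2 libraries stood against 2. Between EV- and GN, 1 of 5 (*Serpinb1a*, lower) passed, against 0.378% of all genes, and 3 of 5 did not overlap, against 25.4%. *Serping1* was among those that did not overlap, and it carries the limit of the filter given above. Between EV+ and GN, limma called 0 of 5 (0.122% of all genes), none had an unadjusted p under 0.05, and edgeR and DESeq2 called 0 as well. Here 3 of 5 did not overlap, against 23.0% of all genes. Between EV+ and EV-, limma called 0 of 5 (0.0222% of all genes), while 1 had an unadjusted p under 0.05 and edgeR's likelihood-ratio test and DESeq2 each called 1, which was *Serpinb1a*. Only *Serpinb1a* did not overlap in this comparison, against 8.91% of all genes. Among the 4 groups, 2 of 5 (*Serpinb8* and *Serpinb1a*) passed, against 2.57% of all genes, and this count too includes the contrast on which *Serpinb8* was treated as selected. GN libraries enter 3 of these comparisons, so the comparisons are not independent of each other. The median difference of the 5 genes was 0.27 between GN and control, -0.07 between EV+ and GN, -0.14 between EV- and GN and 0.04 between EV+ and EV-, where the medians of all genes lay between -0.01 and 0.00.

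**Figure D4:**
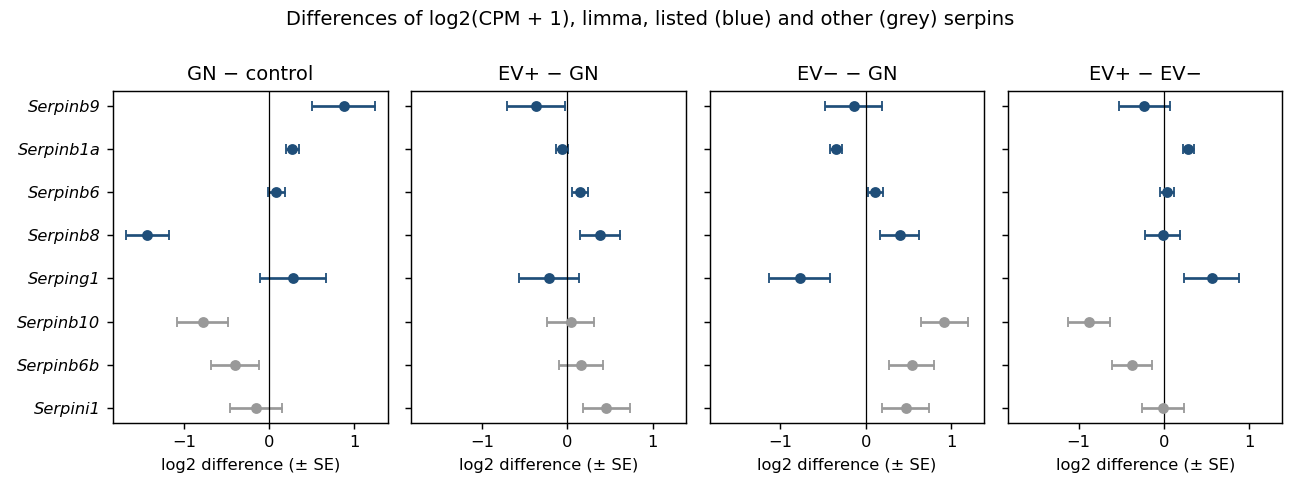
Differences of log2(CPM + 1) with their SE from limma for the 5 listed (blue) and 3 further (grey) serpins in the 4 comparisons, with 0 as a vertical line. *Serpinb8* lies at -1.43 between GN and control and at -0.01 between EV+ and EV-, and *Serpinb1a* at -0.35 between EV- and GN and at 0.28 between EV+ and EV-.

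**Figure D5:**
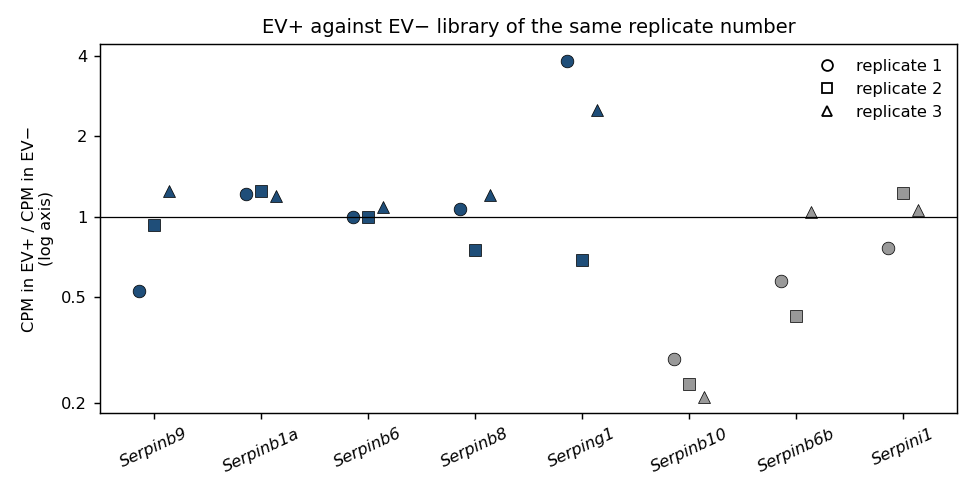
Ratio of CPM in the EV+ library to that in the EV- library of the same replicate number (log axis, 1 as a line) for each serpin, with a symbol for each of the 3 numbers. The ratios of *Serpinb1a* lie between 1.19 and 1.24 and those of *Serpinb10* between 0.211 and 0.292, while those of *Serping1* run from 0.688 to 3.85.

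The share of all genes past each other rule serves as the background for the counts by these rules. An unadjusted p under 0.05 in limma was reached by 10.4% of all genes in GN against control, 7.13% in EV+ against GN, 7.85% in EV- against GN and 4.57% in EV+ against EV-. In the same order, edgeR's likelihood-ratio test called 3.24%, 0.478%, 1.40% and 0.633% of all genes and DESeq2 3.27%, 0.539%, 1.26% and 0.378% of those it gave an adjusted p. The quasi-likelihood test of edgeR called 147, 9, 36 and 2 of 9003 genes.

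The known partners of serpins were described by lists. Of 35 proteases that serpins bind or that belong to the same cascades, 16 had values, and limma called 0 of them in each of the 4 comparisons. Without adjustment, p was under 0.05 for 2 of them in GN against control, for 1 in EV+ against GN, for 6 in EV- against GN and for 6 in EV+ against EV-. In each of the last comparisons, 4 of the 6 were the granzymes *Gzma*, *Gzmb*, *Gzmk* and *Gzmm*, which are also transcripts of cytotoxic lymphocytes and highest in EV- replicate 1. *C1s*, also among the 6 in EV+ against EV-, reached 1 CPM only in EV- replicate 1, so it carries the limit of the filter as well. In GN against control and EV+ against GN, 2 and 1 of 16 were close to the shares of all genes. DESeq2 called 1, 1, 4 and 4 in the same order, edgeR's likelihood-ratio test 1, 0, 4 and 5, and its quasi-likelihood test 0 throughout. The abundant members were the lysosomal cathepsins *Ctsb*, *Ctsh* and *Ctss* and the inflammatory caspase *Casp1*. Their control means were 2311, 863, 529 and 462 CPM and their GN means 2265, 974, 553 and 475 CPM. *Ctss* was the 1 with an unadjusted p under 0.05 in limma in EV+ against GN. It differed there by 0.26 (adjusted p = 0.411 by limma), with means of 659 CPM in EV+ and 621 CPM in EV-. Of *Lrp1*, *Lrpap1* and *Plaur*, which take part in the uptake of serpin complexes and in binding urokinase, limma called 0 of 3 in each comparison, and without adjustment p was under 0.05 for 1 in GN against control and for 1 in EV+ against GN, in both cases *Lrp1*. With 3 genes such a count cannot be set against the share of all genes. edgeR's likelihood-ratio test and DESeq2 each called 1 in GN against control and 0 elsewhere, and the quasi-likelihood test called 0. *Lrp1*, the receptor that clears serpin-protease complexes, had 462 CPM in control, 346 CPM in GN, 424 CPM in EV+ and 380 CPM in EV- on average.

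The genes whose levels resembled each abundant serpin most were found by the Pearson correlation of log2(CPM + 1) over the 10 libraries among 7178 genes with a mean of at least 5 CPM. These values are a description, since 10 libraries of 4 groups share their group differences. For *Serpinb8* they were *Pld4* (r = 0.961), *Lgmn* (r = 0.950), which encodes the lysosomal protease legumain, and *Plin2* (r = 0.939), a lipid droplet gene. For *Serpinb1a* they were *Pltp* (r = 0.961), which encodes phospholipid transfer protein, *Tp53inp2* (r = 0.921) and *Lpl* (r = 0.914), which encodes lipoprotein lipase. For *Serpinb9* they were *Hacl1* (r = 0.886), *Dhrs7b* (r = 0.882) and *Tmed1* (r = 0.879), and for *Serpinb6* *Gda* (r = 0.911), *Hyal2* (r = 0.911) and *RGD1311783* (r = 0.908).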

How the data were processed

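RNA of sorted splenic M2 macrophages was sequenced in 10 libraries, which were grouped by the sample labels. Per the labels and the methods of the study, the authors aligned paired-end reads to rn6 with STAR (version 2.5.3), counted them per RefSeq gene with HTSeq (version 0.6.0), removed genes whose CPM stayed under 1 in all samples and applied TMM normalization in edgeR. The signal the authors deposited is TMM-normalized CPM. On division by the worth of 1 read, 100% of the values gave whole reads (tolerance 0.1). Of the symbols, 18 had become dates.

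limma (version 3.58.1, R 4.3.3) was fitted to log2(CPM + 1) over all libraries (6 residual degrees of freedom) with an intensity trend and Benjamini-Hochberg adjustment. edgeR (version 4.0.16) and DESeq2 (version 1.42.0) were run on the recovered reads. Alternatives were a pseudocount of 0.1, no trend, at least 1 CPM in 2 libraries, RLE scaling, an FDR of 0.05, a replicate block, only the groups compared, and each library left out. The procedure was tested on simulated data. The members and lists were chosen with earlier results of these data known. Named genes were all serpins, list members called or most abundant, and the 3 most correlated genes. *Furin*, *Gzma*, *Gzmb*, *Gzmk*, *Gzmm*, *C1r*, *C1s*, *Cd3e*, *Ncr1*, *Pecam1*, *Col3a1* and the M2 markers were named in addition, after their values were seen, as was the choice of motifs. *Cdh5*, *Kdr* and *Vwf* were named as markers without values.

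Same-numbered EV+ and EV- libraries deviated together from their group means, with correlations of 0.203, 0.295 and 0.122 across genes, so the replicate block is given where it changed a call. For control and GN the correlation was 0.0878. That replicates are separate animals is stated only as biological replicates, and p-values measure the spread between these libraries. Replicate libraries differed by 13.4 to 45.4 chi-square units per degree of freedom, so none was a copy.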

Additional observations from a re-analysis of the deposited data

How the results depend on the processing

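Between GN and control, limma called 1 of the 5 listed serpins, DESeq2 called 2, and 0 to 2 were called with single libraries left out (0 without control replicate 2 or GN replicate 2, and 2 without EV+ replicate 2 or EV- replicate 1). The gene called as reported was *Serpinb8*, which was treated as selected on this contrast, so these counts are a description and say nothing of stability. Between EV- and GN limma called 1, but 0 at an FDR of 0.05, without the trend, with the replicate block and with only the groups compared, and 0 to 1 with single libraries left out. Between EV+ and EV- it called 0, but 1 by edgeR's likelihood-ratio test, by DESeq2 and with the replicate block in only the EV+ and EV- libraries. Among the 4 groups it called 2, but 1 without the trend, and 0 to 2 with single libraries left out (0 without control replicate 2, and 1 without control replicate 1, either GN library or EV- replicate 1). The replicate block over all libraries changed no other call. The cause of these changes was not tested. *Serpinb9* between EV- and GN turned from -0.14 to 0.0165, 0.0189 and 0.0200 on the recovered reads (edgeR's quasi-likelihood test, its likelihood-ratio test and DESeq2), and lay between -0.60 and 0.13 with single libraries left out. Other signs that turned with single libraries left out were all of differences that had not passed. They were between EV+ and EV- *Serpinb8* (-0.20 to 0.14), *Serpinb9* (-0.50 to 0.23), *Serpinb6* (-0.029 to 0.079) and *Serpini1* (-0.27 to 0.16), between EV+ and GN *Serping1* (-0.48 to 0.19) and *Serpinb10* (-0.12 to 0.20), and between GN and control *Serpini1* (-0.45 to 0.14). Over all genes, calls ranged over the alternatives from 34 to 294 between GN and control (158 as reported), 0 to 43 between EV+ and GN (11), 6 to 126 between EV- and GN (34), 0 to 57 between EV+ and EV- (2) and 93 to 616 among the 4 groups (231). Depth limits *Serping1* and *Serpinb10* most, with as few as 10 and 5 reads in a library.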
